A study of Drosophila melanogaster with 6 samples.

Results

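The Hox genes Antp, Scr, Ubx, abd-A and Abd-B and the Hox cofactor genes exd, hth and tsh were examined in Drosophila indirect flight muscles in which Antp was kept on. These 8 genes, of 17611 in the count table, were chosen by name and joined to the counts by gene identifier. Muscles were dissected at 72 hours after puparium formation (APF) from pupae staged at 25°C, and each sample pooled the muscles of 6 to 8 pupae. The muscles labelled Act88F-Gal4;UAS-Antpnls, called UAS-Antp here, expressed Antp, and those labelled Act88F-Gal4;UAS-GFPnls, called UAS-GFP here, were the control, with 3 samples each. Both genotypes thus carry Act88F-Gal4, a driver that uses the promoter of the flight muscle actin gene Act88F and turns on late, after myoblast fusion. The comparison asks what the muscle's own Hox system did when Antp, which is normally cleared from the fibers, was maintained.

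Hox genes encode homeodomain transcription factors that give body segments along the head-to-tail axis their identity. Many Hox proteins bind DNA together with Extradenticle (Exd) and Homothorax (Hth), homeodomain proteins of the TALE class. Hth binds Exd and brings it into the nucleus. Teashirt (Tsh), a zinc finger protein, acts beside Hox proteins in trunk identity. In flight muscle, exd and hth are known as regulators of the fibrillar fiber type that act upstream of salm.

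Total counts ran from 63217976 to 77781458 in the UAS-Antp samples and from 47460809 to 64485309 in the UAS-GFP samples. The UAS-Antp samples are named by these totals as the shallowest, middle and deepest library, because the count table and the sample labels number them differently. The labels describe independent replicates, whereas the study's methods describe technical replicates of 1 biological replicate, so errors and P values cover the spread between these samples only. Levels are counts per 1000000 (CPM) after scaling by edgeR's TMM method, and a library with 3 counts or fewer of a gene was taken as at the floor. Of 9546 genes that passed the low-count filter, 3397 (35.6%) had an adjusted P under 0.001 in edgeR's quasi-likelihood test, 16.3% higher and 19.3% lower with UAS-Antp. The TMM factors differed between genotypes, at 1.53 to 1.60 with UAS-Antp and 0.609 to 0.674 with UAS-GFP. Scaling by library totals moved the median log2 fold change over the tested genes by 1.32, from 0.17 under TMM to 1.48.

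Of the 8 genes, 6 passed the filter and 4 of these had an adjusted P under 0.001, beside 35.6% of all tested genes. Antp, exd and tsh rose with UAS-Antp and hth fell, whereas Ubx and abd-A did not pass the test and Scr and Abd-B were not tested. Under library totals 3 of them passed, Antp, exd and tsh, all higher, beside 59.2% of all tested genes, 52.1% of them in that direction, and the fall of hth was lost. When the shallowest UAS-Antp library or UAS-GFP replicate 1 was left out, 2 passed, Antp and tsh. Of the 6 tested genes, 4 had every UAS-Antp library above every UAS-GFP library (Antp, exd, tsh and abd-A) and 1 had every one below (hth), beside 37.6% and 30.6% of all tested genes.

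**Figure D1:**
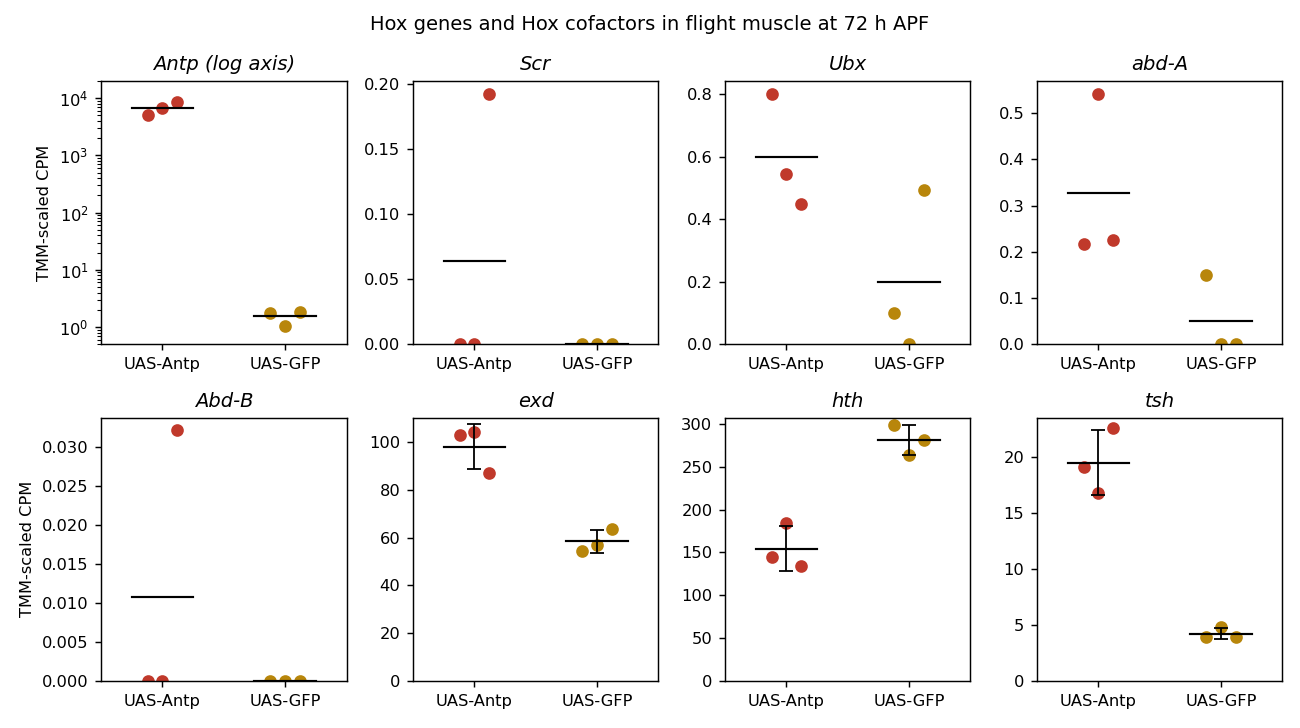
TMM-scaled CPM (y axis, logarithmic for Antp and linear from 0 for the other genes) in each UAS-Antp and UAS-GFP library; points are libraries, from left to right the shallowest, middle and deepest UAS-Antp library and UAS-GFP replicates 1, 2 and 3, horizontal lines are means, and bars are SD, drawn for exd, hth and tsh. The genotypes do not overlap for Antp, exd, hth, tsh and abd-A, and Scr and Abd-B have counts in the deepest UAS-Antp library only.

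Antp (FBgn0260642) gives the second thoracic segment its identity, and its counts include the transgene. It spans bases 6896253 to 6999228 of chromosome 3R (minus strand, dm6 genome, as for all positions here) and has 12 transcripts from 3 start sites. It had 517985, 716673 and 1092524 counts in the shallowest, middle and deepest UAS-Antp libraries, against 70, 33 and 66 counts in UAS-GFP replicates 1, 2 and 3. Every UAS-Antp library was thus far above every UAS-GFP library. Across all tested genes, the genotypes did not overlap for 68.3%. Its level was 6864 ± 1826 CPM with UAS-Antp and 1.53 ± 0.435 CPM with UAS-GFP (SD, n = 3 each). The log2 fold change was 12.11 (standard error 0.33, edgeR adjusted P = 2.74e-09).

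Within the UAS-Antp libraries, Antp took 0.819%, 1.03% and 1.41% of all counts. It ranked 10th, 7th and 4th of all genes by counts in the shallowest, middle and deepest of these libraries, and 66th, 45th and 34th per length of exon. In UAS-GFP replicates 1, 2 and 3 it ranked 6818th, 7430th and 6827th by counts. Act88F, whose promoter drives Gal4 in both genotypes, averaged 1400 ± 247 CPM in UAS-Antp muscles and 75390 ± 4627 CPM in UAS-GFP muscles (SD, n = 3 each), a log2 fold change of -5.75 (edgeR adjusted P = 4.91e-09). Per length of exon, Act88F stood at 878 ± 155 CPM per kilobase in UAS-Antp muscles (SD, n = 3), so it was far below its UAS-GFP level but still among the abundant RNAs of those libraries.

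The counts of Antp could be divided by position, because the gene CG46458 lies wholly inside it on the same strand. All 3978 exon bases of CG46458 are also exon bases of Antp, 1098 of them coding, 845 in a 5′ UTR and 2035 in a 3′ UTR. Of the other 3967 exon bases of Antp, 47 are coding, 2433 are in a 5′ UTR and 1487 in a 3′ UTR. CG46458 was listed with 426846, 604429 and 950226 counts in the UAS-Antp libraries, against 68, 12 and 64 in the UAS-GFP libraries. A read on the shared bases cannot be assigned to one of these genes, so the rise of CG46458 (log2 fold change 12.12, standard error 0.50, edgeR adjusted P = 2.08e-08) is not a separate measurement. If each read counted for CG46458 was also counted for Antp, then 17.6%, 15.7% and 13.0% of the Antp counts lay outside the shared bases in the UAS-Antp libraries. The same share was 2.86%, 63.6% and 3.03% in UAS-GFP replicates 1, 2 and 3, from 2, 21 and 2 counts. The counts outside were 91139, 112244 and 142298 in the UAS-Antp libraries. Whether they came from the transgene or from the endogenous gene was not tested.

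Among the cofactor genes, exd rose moderately. This gene (FBgn0000611, chromosome X from 15992468 to 15996509, plus strand) encodes the Pbx-type partner of Hox proteins. It was at 103.0, 104.2 and 87.2 CPM in the shallowest, middle and deepest UAS-Antp libraries, against 54.5, 57.2 and 63.7 CPM in UAS-GFP replicates 1, 2 and 3. The lowest UAS-Antp library lay above the highest UAS-GFP library. The mean was 98.1 ± 9.51 CPM with UAS-Antp and 58.5 ± 4.75 CPM with UAS-GFP (SD, n = 3 each), a log2 fold change of 0.75 (standard error 0.11, edgeR adjusted P = 0.000256). This lies 0.58 above the median over the tested genes, and 68.5% of tested genes had a smaller value. The call depended on the libraries used, since without the shallowest or middle UAS-Antp library or UAS-GFP replicate 1 or 2 the edgeR adjusted P was 0.00145, 0.00126, 0.00163 and 0.00198, with the log2 fold change between 0.69 and 0.71.

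The partner gene hth fell under TMM scaling. This gene (FBgn0001235, chromosome 3R from 10507561 to 10639568, minus strand) encodes the Meis-type protein that carries Exd into the nucleus. It was at 144.8, 184.6 and 134.2 CPM in the shallowest, middle and deepest UAS-Antp libraries, against 298.3, 263.1 and 281.7 CPM in UAS-GFP replicates 1, 2 and 3. The highest UAS-Antp library lay below the lowest UAS-GFP library. The mean was 154.6 ± 26.6 CPM with UAS-Antp and 281.0 ± 17.6 CPM with UAS-GFP (SD, n = 3 each), a log2 fold change of -0.86 (standard error 0.13, edgeR adjusted P = 0.000264). Scaled by library totals, the log2 fold change turned to 0.45 (edgeR adjusted P = 0.0056). Relative to the median over the tested genes hth was at -1.03 under TMM and -1.03 under library totals. A change of scaling moves all genes and the median by nearly the same amount. This agreement was therefore fixed in advance and is no separate support. Without the shallowest or deepest UAS-Antp library or UAS-GFP replicate 1 or 3, the edgeR adjusted P was 0.00176, 0.00121, 0.00122 and 0.00152, with log2 fold changes from -0.88 to -0.77. A noncoding gene on the opposite strand, asRNA:CR44018, shares 207 exon bases with hth and had at most 2 counts in any library.

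**Figure D2:**
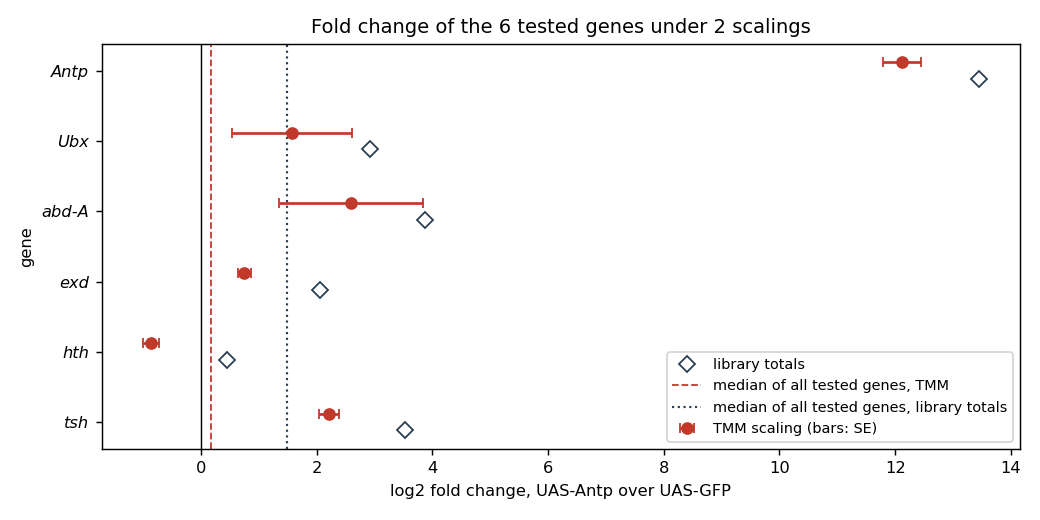
Log2 fold change, UAS-Antp relative to UAS-GFP (x axis), for the 6 tested genes (y axis) under TMM scaling (filled points, bars are standard errors) and under library totals (open diamonds); vertical lines mark 0 and the median over the tested genes under each scaling, 0.17 and 1.48. The value of hth turns from -0.86 to 0.45. It lies left of the median under both scalings, since rescaling moves all genes and the median together.

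Per length of exon, the order of exd and hth differed between the genotypes. This order rests on the exon lengths used, 3302 bases for exd and 11839 for hth. In counts not divided by length, hth was above exd in every library. The ratio of exd to hth per length of exon does not depend on how libraries are scaled, and it was chosen after the values were seen. It was 2.55, 2.02 and 2.33 in the shallowest, middle and deepest UAS-Antp libraries, against 0.655, 0.779 and 0.811 in UAS-GFP replicates 1, 2 and 3. All UAS-Antp libraries thus held more exd than hth per length, and all UAS-GFP libraries less. The mean ratio was 2.30 ± 0.265 with UAS-Antp and 0.749 ± 0.0822 with UAS-GFP (SD, n = 3 each), 3.07 times as high (two-sided exact permutation P = 0.1, the smallest that 3 libraries against 3 allow). Leaving out each library in turn gave 2.89 to 3.26 times.

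**Figure D3:**
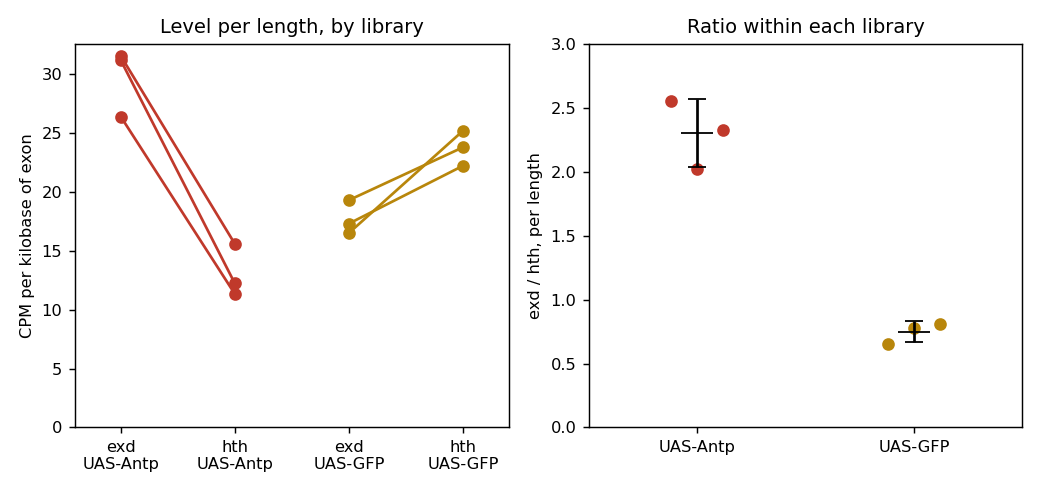
Left, CPM per kilobase of exon (y axis) of exd and hth, with a line joining both genes of 1 library; right, the ratio of exd to hth per length (y axis) in each library, with mean and SD. The lines slope down from exd to hth in the 3 UAS-Antp libraries and up in the 3 UAS-GFP libraries, and the ratios lie at 2.02 to 2.55 and at 0.655 to 0.811.

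The trunk gene tsh had the largest change among the cofactor genes. This gene (FBgn0003866, chromosome 2L from 21828593 to 21837011, plus strand) was at 19.1, 16.8 and 22.6 CPM in the shallowest, middle and deepest UAS-Antp libraries, against 3.96, 4.79 and 3.90 CPM in UAS-GFP replicates 1, 2 and 3. The genotypes did not overlap, and the lowest UAS-Antp library lay well above the highest UAS-GFP library. The mean was 19.5 ± 2.92 CPM with UAS-Antp and 4.22 ± 0.496 CPM with UAS-GFP (SD, n = 3 each), a log2 fold change of 2.21 (standard error 0.18, edgeR adjusted P = 1.83e-06). A smaller value was found for 89.4% of tested genes. The rise held without any single library, with log2 fold changes from 2.10 to 2.31, and under library totals, with 3.53.

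The other Hox genes were scarce. Ubx (FBgn0003944, chromosome 3R from 16656623 to 16734426, minus strand) gives the third thoracic segment, which bears the halteres, its identity. It had 81, 58 and 56 counts in the shallowest, middle and deepest UAS-Antp libraries, against 4, 0 and 18 counts in UAS-GFP replicates 1, 2 and 3. In CPM the genotypes overlapped, because UAS-GFP replicate 3, at 0.495 CPM, lay above the deepest UAS-Antp library, at 0.449 CPM. The mean was 0.598 ± 0.182 CPM with UAS-Antp and 0.198 ± 0.262 CPM with UAS-GFP (SD, n = 3 each), a log2 fold change of 1.57 that did not pass the test (standard error 1.03, edgeR adjusted P = 0.217). Leaving out each library in turn moved this value between 0.98 and 3.44, with the highest value when UAS-GFP replicate 3 was left out.

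The abdominal gene abd-A (FBgn0000014, chromosome 3R from 16807214 to 16830049, minus strand) had 22, 58 and 28 counts in the shallowest, middle and deepest UAS-Antp libraries, against 6, 0 and 0 counts in UAS-GFP replicates 1, 2 and 3. The genotypes did not overlap, which held for 68.3% of all tested genes. The log2 fold change of 2.60 did not pass the test (standard error 1.24, edgeR adjusted P = 0.0971). Its size rests on the 6 counts of UAS-GFP replicate 1, since UAS-GFP replicates 2 and 3 were at 0. Without UAS-GFP replicate 1 the fitted value was 7.72, against UAS-GFP libraries that were all at 0, so the size of that value depends on the prior count.

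Scr (FBgn0003339, chromosome 3R from 6823120 to 6849981, minus strand), which acts in the labial and first thoracic segments, had 0, 0 and 24 counts in the shallowest, middle and deepest UAS-Antp libraries and 0 counts in each UAS-GFP library. Abd-B (FBgn0000015, chromosome 3R from 16927212 to 16972236, minus strand), which acts in the posterior abdomen, had 0, 0 and 4 counts in the UAS-Antp libraries and 0 counts in each UAS-GFP library. Both were thus below detection in 5 of 6 libraries and at or near the floor as a group. The floor of 3 counts stands for 0.0241 to 0.0297 CPM in the UAS-Antp libraries and for 0.0751 to 0.0939 CPM in the UAS-GFP libraries, so lower levels could not be seen at this depth. The two-sided exact permutation P was 1 for both genes, and the smallest that this design allows is 0.1. The deepest UAS-Antp library also held the most genes above the floor, 11634, against 10702 and 9975 in the other UAS-Antp libraries and 9312 to 9551 in the UAS-GFP libraries. Its part in the counts of Scr and Abd-B was not tested.

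Per length of exon, the order in UAS-Antp muscles was Antp, exd, hth, tsh, Ubx and abd-A. The libraries of each gene lay above those of the next in this order, whereas abd-A, Scr and Abd-B overlapped. Antp stood at 864 ± 230 CPM per kilobase in UAS-Antp muscles, exd at 29.7 ± 2.88, hth at 13.1 ± 2.25 and tsh at 4.12 ± 0.617 (SD, n = 3). In UAS-GFP muscles the order was hth, exd, tsh and Antp with separate ranges, and Ubx, abd-A, Scr and Abd-B overlapped below them. There hth stood at 23.7 ± 1.49 CPM per kilobase, exd at 17.7 ± 1.44, tsh at 0.891 ± 0.105 and Antp at 0.193 ± 0.0547 (SD, n = 3). The cofactor genes exd and hth were thus the most abundant of the 8 genes in control muscle. Antp had low counts in UAS-GFP replicates 1, 2 and 3, at 70, 33 and 66. The UAS-Antp libraries of the same series held 517985 to 1092524 counts of Antp. Whether the few control counts came from these muscles was not tested.

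The remaining Hox genes, lab, pb and Dfd, act in the head. Of these, lab (FBgn0002522, on chromosome 3R between bases 6661427 and 6678590) had 78, 110 and 109 counts in the shallowest, middle and deepest UAS-Antp libraries, against 0, 8 and 4 counts in UAS-GFP replicates 1, 2 and 3. Its log2 fold change of 2.92 did not pass 0.001 (standard error 0.95, edgeR adjusted P = 0.0224), although every UAS-Antp library lay above every UAS-GFP library. The gene pb had 4 counts in the shallowest UAS-Antp library and 0 in the others, and Dfd had 0 counts in all 6 libraries. Low counts of several Hox genes were thus found in the UAS-Antp libraries, and of the 4 Hox genes tested (Antp, Ubx, abd-A and lab) only Antp passed 0.001.

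**Figure D4:**
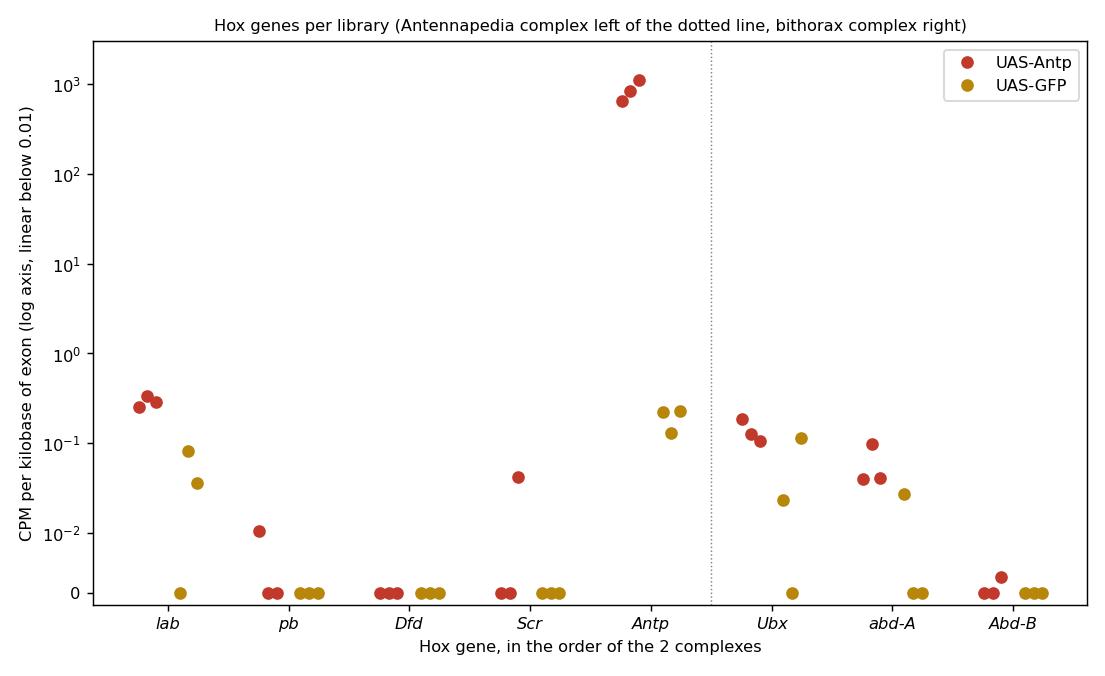
CPM per kilobase of exon (y axis, logarithmic and linear below 0.01) of the 8 Hox genes in the order of the Antennapedia complex (lab to Antp) and the bithorax complex (Ubx to Abd-B) on the x axis, 1 point per library, UAS-Antp left and UAS-GFP right of each gene. Antp in UAS-Antp muscles lies at 645 to 1103, and every other Hox value is far lower, with Dfd at 0 in all libraries.

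Of 49 other genes between the outer Hox genes of each complex, 30 (61.2%) had 0 counts in all 6 libraries, beside 25.5% of all 17611 genes. Most of the 49 are noncoding, among them long noncoding RNA and tRNA genes, whereas the libraries were made from polyA RNA. The shares were not split by gene type, so they do not show that the complexes were silent. Above the floor in at least 1 library were 18 of the 49 (36.7%), beside 71.2% of all genes, and 9 passed the filter. Of these 9, CG46458, which shares its exons with Antp, had an adjusted P under 0.001, beside 35.6% of all tested genes. Chosen after its values were seen, lncRNA:iab8 of the bithorax complex had 0, 0 and 26 counts in the shallowest, middle and deepest UAS-Antp libraries and 0 in each UAS-GFP library, as Scr and Abd-B had counts in the deepest library only.

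Among the relatives of the cofactor genes, tio, the paralog of tsh, stood out. Of 6 relatives (the TALE genes achi, vis, ara, caup and mirr, and tio), all were tested and 1 passed 0.001, beside 35.6% of all tested genes. The gene tio (FBgn0028979, on chromosome 2L between bases 22019208 and 22025734) had 938, 1150 and 1220 counts in the shallowest, middle and deepest UAS-Antp libraries, against 6, 2 and 0 counts in UAS-GFP replicates 1, 2 and 3. Its level was 9.94 ± 0.751 CPM with UAS-Antp and 0.0710 ± 0.0755 CPM with UAS-GFP (SD, n = 3 each), a log2 fold change of 7.05 (standard error 0.48, edgeR adjusted P = 5.51e-07). Both genes of the Teashirt family thus rose, and in UAS-GFP muscles tio was at or near the floor. The TALE genes did not pass, with log2 fold changes from -0.56 for ara, which turned to 0.75 under library totals, to 1.86 for mirr (edgeR adjusted P = 0.0072). The median of the list was 1.39, beside 0.17 for all tested genes.

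Of 7 other Hox partner genes (disco, disco-r, en, slp1, slp2, cnc and lin), 6 were tested and 0 had an adjusted P under 0.001 in edgeR's quasi-likelihood test, beside 35.6% of all tested genes, and their median log2 fold change was 0.85. At an unadjusted P under 0.05 edgeR gave 3, and at the adjusted 0.001 DESeq2 gave 1 and limma-voom 0. The closest was cnc, a bZIP gene, at 102.1 ± 3.24 CPM with UAS-Antp and 130.4 ± 6.56 CPM with UAS-GFP (SD, n = 3 each, log2 fold change -0.35, edgeR adjusted P = 0.00923). Under library totals cnc turned to 0.97 (edgeR adjusted P = 7.03e-06), and 3 genes of the list passed, all higher, beside 52.1% of all tested genes in that direction.

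Of 14 genes known as Hox targets in other tissues, 12 were tested, 1 rose and 2 fell, beside 16.3% and 19.3% of all tested genes. betaTub60D, a tubulin gene that Ubx regulates in visceral mesoderm, averaged 1013 ± 58.9 CPM with UAS-Antp and 528 ± 87.7 CPM with UAS-GFP (SD, n = 3 each), a log2 fold change of 0.94 (edgeR adjusted P = 0.000136). The fibrillar selector salm fell, with a log2 fold change of -2.60 (edgeR adjusted P = 3.14e-08), also under library totals, with -1.28. The wing and flight muscle gene vg averaged 27.4 ± 2.03 CPM with UAS-Antp and 63.2 ± 1.90 CPM with UAS-GFP (SD, n = 3 each). Its log2 fold change of -1.20 (edgeR adjusted P = 3.88e-06) turned to 0.11 under library totals, as that of hth turned. The other 9 tested targets did not pass, among them Dll at 2.83 (edgeR adjusted P = 0.00635) and dpp at 1.22 (edgeR adjusted P = 0.0022).

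**Figure D5:**
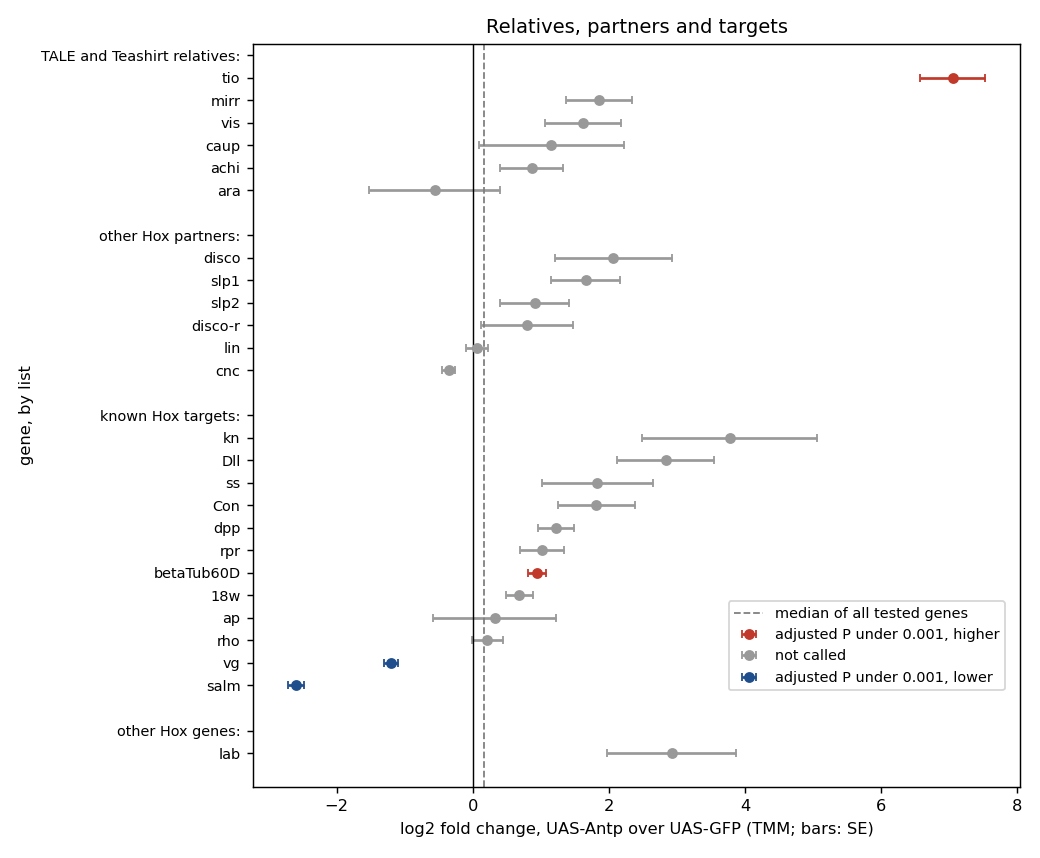
Log2 fold change, UAS-Antp relative to UAS-GFP, under TMM scaling (x axis, bars are standard errors) for the tested genes of 4 lists (y axis), coloured by whether the adjusted P was under 0.001. The single relative that passed is tio at 7.05, the targets that passed are betaTub60D, vg and salm, and the dashed line marks the median over the tested genes, 0.17.

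Genes listed as markers of muscle and of other cell types moved beside the cofactor genes. The counts of markers below stand beside 16.3% of all tested genes that rose and 19.3% that fell. Of 8 flight muscle markers, 7 fell and Mf did not pass, and their summed level was 53320 to 63350 CPM with UAS-Antp and 330500 to 370000 CPM with UAS-GFP, so both genotypes held muscle RNA. Of 8 neuron and glia markers, 7 were tested and repo and moody rose, with a sum of 109.8 to 137.8 CPM with UAS-Antp and 74.2 to 86.9 CPM with UAS-GFP. That sum was mostly moody and elav. On average moody stood at 54.2 CPM with UAS-Antp and 25.2 CPM with UAS-GFP, and elav at 48.9 and 46.4 CPM. The log2 fold change of elav, 0.08, did not pass. Of 6 tendon and epidermis markers, how rose, with a sum of 404.1 to 477.4 CPM with UAS-Antp and 202.2 to 235.8 CPM with UAS-GFP. That sum was mostly how, at 410.7 CPM with UAS-Antp and 183.2 CPM with UAS-GFP on average. Whether how marks tendon or epidermis in dissected flight muscle was not tested. By contrast, sr, grh and Tsp had log2 fold changes of -0.63, -0.78 and -1.17 that did not pass, and the list's median was -0.62. Of 5 trachea markers, btl, trh, verm and serp fell, with a sum of 530.7 to 624.1 CPM with UAS-Antp and 982 to 1092 CPM with UAS-GFP. Gasp did not pass, with a log2 fold change of 0.20. It made up much of that sum, at 401.5 CPM with UAS-Antp and 349.6 CPM with UAS-GFP on average. Under library totals the 4 falls shrank, to -0.21 for btl and -0.15 for trh, and serp alone of the 4 passed 0.001. Gasp passed as higher there, with 1.52 (edgeR adjusted P = 5.36e-07). Of 5 myoblast markers, 4 were tested and N rose, with a sum of 40.6 to 48.0 CPM with UAS-Antp and 36.2 to 39.95 CPM with UAS-GFP. Here N stood at 24.6 CPM with UAS-Antp and 6.87 CPM with UAS-GFP on average, whereas Him and zfh1 had log2 fold changes of -1.08 and -0.64 that did not pass. The gene twi, not tested, had 12, 0 and 16 counts in the shallowest, middle and deepest UAS-Antp libraries and 0 in each UAS-GFP library.

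Under TMM, hemocyte and fat body markers did not pass. Of 6 hemocyte markers, 5 were tested and 0 had an adjusted P under 0.001 by edgeR (2 at an unadjusted P under 0.05, 0 with DESeq2 and 0 with limma-voom at 0.001), and they summed to 29.5 to 58.0 CPM with UAS-Antp and 31.7 to 33.1 CPM with UAS-GFP. Of 6 fat body markers, 4 were tested and 0 passed by edgeR (2 at an unadjusted P under 0.05, 1 with DESeq2 and 0 with limma-voom at 0.001), and they summed to 326.6 to 496.9 CPM with UAS-Antp and 238.5 to 455.2 CPM with UAS-GFP. In the shallowest, middle and deepest UAS-Antp libraries the untested Yp1 had 6, 0 and 157 counts, and the untested Yp2 had 42, 0 and 236. In UAS-GFP replicates 1, 2 and 3 Yp1 had 2, 0 and 4 counts and Yp2 had 0, 0 and 2. Under library totals 3 of 5 tested hemocyte and 3 of 4 tested fat body markers passed, all higher, beside 52.1% of all tested genes in that direction. So did 5 of 7 neuron and glia, 2 of 4 myoblast and 1 of 6 tendon and epidermis markers. Of the 5 trachea and 8 flight muscle markers, 1 each passed as higher, Gasp and Mf. The values of sr, grh, Tsp, Him and zfh1 turned positive. The part of these cells in the levels of exd, hth, tsh, tio and the scarce Hox genes was not tested. In these bulk samples, fewer cells of a type and less RNA per cell cannot be told apart.

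The genes whose log2 CPM over the 6 libraries correlated most closely with each tested gene were also listed, as a description. With a large difference between genotypes, many genes reach such values, and 491 of the tested genes (5.14%) had a Pearson r above 0.99 with Antp and 253 (2.65%) with tsh. For Antp the closest were CG3618, ERp60 and glec (r of 0.9994 or more), and for tsh they were Nep4, rdgC and CG6834 (0.9988 or more). For exd they were Mpp6, Caf1-55 and Nup43 (0.996 or more), and for hth Hrb27C, Fim and fax (0.9961 or more), with 28 genes above 0.99 in either case. For the scarce genes the values rest on few counts. They were EMC5, CG7763 and CR43670 for Ubx (0.9776 or more) and Gmd, lncRNA:CR43264 and CG8677 for abd-A (0.9888 or more).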

How the data were processed

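PolyA RNA of dissected flight muscles was made into stranded libraries with 15 cycles of amplification. The authors deposited raw counts per gene, without normalization, for 17611 genes of FlyBase release 6.42 on dm6. The submitters' processing notes name bcl2fastq, Subread, featureCounts and DESeq2 1.34. The deposited comparison table (fold changes and P values) was used for gene symbols only, for 17582 genes, with 29 symbols from a name table. Exon parts come from Ensembl release 115, which holds 17556 of the genes, 99.9% of them with identical ends. In each library, 75.0% to 81.0% of genes with 5 to 50 counts had an even count, so both mates of a pair appear to have been counted.

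Counts were tested in R 4.3.3 with edgeR 4.0.16 (filterByExpr, TMM, quasi-likelihood test, Benjamini-Hochberg adjustment over 9546 genes, threshold 0.001). The standard error is the size of the log2 fold change divided by the square root of F. The biological coefficient of variation was 0.258. Samples of one genotype differed by more than sampling noise (chi-square per degree of freedom 61.0 to 139). Alternatives were DESeq2's size factors, upper quartile factors, library totals, TMM without the 50 most abundant genes, Antp left out of the library sizes, other filters, DESeq2 1.42.0, limma-voom (limma 3.58.1), halved counts, a threshold of 0.05, and each library left out. Reads carry no molecular identifiers, so the floor of 3 counts covers counting error alone.

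The members and gene lists were chosen with earlier results of these data known. Named genes are the members, lab, pb, Dfd, Act88F, list genes with an adjusted P under 0.001 (up to 6 per list) and the 3 genes best correlated with each tested member; any other gene was picked with its values in view. Sequences were not used here.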

Additional observations from a re-analysis of the deposited data

How the results depend on the processing

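The count of genes called (3397) came to 5656 under library totals and to 5807 at a threshold of 0.05, and from 2758 to 3043 when each library was left out. Of the 4 members that passed, 2 or 3 remained when a library was left out, and 2 without the shallowest UAS-Antp library or without UAS-GFP replicate 1. Antp and tsh passed under every alternative run. Over the fits that left out 1 library, the log2 fold change of Antp ran from 11.88 to 12.29, of exd from 0.69 to 0.83, of hth from -1.01 to -0.77, of tsh from 2.10 to 2.31, of Ubx from 0.98 to 3.44 and of abd-A from 2.02 to 7.72, and exd and hth each passed 0.001 in 2 of 6 such fits. Under library totals hth turned to 0.45 and vg to 0.11; the factors behind these differ between genotypes, and which scaling is right was not tested. betaTub60D did not pass without UAS-GFP replicate 3 (edgeR adjusted P = 0.00201).

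Over all genes, 5656 (59.2%) passed under library totals and 5807 of 9546 at 0.05. Without the filter 4046 passed, and with DESeq2's Wald test 4264. Beside these, 3 of the 6 tested relatives passed under library totals and at 0.05, and 2 without the filter and with DESeq2's Wald test. Of the 6 tested partners, 3 passed under library totals, 1 with DESeq2's Wald test and 2 at 0.05. Of the 12 tested targets, 8 passed under library totals and 9 at 0.05, with 2 to 4 when a library was left out. Of the head Hox genes, 1 (lab) passed at 0.05. No paired analysis was possible because the labels number the UAS-Antp samples from 4 to 6 and the UAS-GFP samples from 1 to 3, and the differing numbers of the count table name no shared animal, batch or day.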

Other observations

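The paralogs tsh and tio are neighbours on chromosome 2L, 182196 bases apart, and their interval was looked at after the values were seen. Of the 22 other genes in it, 12 had 0 counts in all 6 libraries, 9 were above the floor in at least 1 library, and 1 was tested. That gene, lncRNA:CR33987, starts at the same base as tio on the same strand, and 883 of its 1047 exon bases are also exon bases of tio, which has 5708. Reads on those shared bases cannot be assigned to one of these genes. It had 39, 165 and 52 counts in the shallowest, middle and deepest UAS-Antp libraries and 0 in each UAS-GFP library (edgeR adjusted P = 0.0021).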
